A study of Homo sapiens with 3 samples.

Results

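A pair of arrays carried the comparison, and both came from UM-UC-3 cells in which WDR5 had been silenced, each with a different siRNA. The array of si-WDR5-2 was set directly over the array of si-WDR5-3, without the control array in the ratio, so that each value asks where the silenced cells differed from each other. Of 49293 probe sets on the array, 45064 had 1 gene symbol and entered the comparison, which gave 18155 genes. A further 1756 probe sets had several symbols and 2473 had none.

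UM-UC-3 is an established human bladder cancer cell line. The cells received 75 nM of si-WDR5-2, si-WDR5-3 or control siRNA with a lipid reagent, and total RNA was taken after 48 h. The labels place the target of si-WDR5-2 at position 999 and that of si-WDR5-3 at position 585 of the WDR5 coding sequence, and state that WDR5 was left at 0.06 by si-WDR5-2 and at 0.14 by si-WDR5-3, where control is 1. Each condition was 1 PrimeView array, an array of short probes grouped into probe sets, often more than 1 for a gene. With 1 array a side there was no replicate, no test and no p-value, and the only error that can be given is the range over the probe sets of a gene, an error of the probes that says nothing of the cells.

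WDR5 is a subunit of the MLL/SET1 complexes, which methylate lysine 4 of histone H3 at active promoters, and it also sits in the NSL acetyltransferase complex. A siRNA works as a duplex in which the guide strand pairs with the target mRNA. The guide can also lower other mRNAs that match only its seed, the bases near its 5′ end, in the way of a miRNA, and double-stranded RNA can set off an interferon response through sensors such as RIG-I, MDA5 and TLR3.

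The siRNA sequences are shown because they are the only designed difference between the conditions. The sense strands are given 5′ to 3′ as in the labels, with the overhang at the end, and the guides were computed as the reverse complement of the bases before the overhang. Capitals mark the seed of the guide, its bases 2 to 8, and in the sense strand the bases that pair with it. WDR5 lies on chromosome 9.
si-WDR5-2 sense: gcucagaggauAACCUUGutt
si-WDR5-3 sense: cccaguccaacCUUAUUGutt
si-WDR5-2 guide: aCAAGGUUauccucugagc
si-WDR5-3 guide: aCAAUAAGguuggacuggg

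Both duplexes are 19 bases long before an overhang of 2, and both hold 9 G or C bases. Their seeds begin with the same 3 bases and differ after that, and the longest run that the sense strands share is 6 bases. The seed of si-WDR5-2 holds 3 G or C bases and that of si-WDR5-3 holds 2. Neither seed equals the seed of any of 2370 mature human miRNAs in the RefSeq table. Matches of the seeds in other mRNAs were not analysed here.

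The intensity of WDR5 itself, the target, came to 211 with si-WDR5-2 and 311 with si-WDR5-3, against 979 with control siRNA. WDR5 was thus below control on both arrays and lower with si-WDR5-2, at 0.68 times the level with si-WDR5-3 (log2 ratio -0.56). On both arrays the share of control left was larger than the 0.06 and 0.14 that the labels state. Its 2 probe sets gave 204 and 218 with si-WDR5-2 and 315 and 306 with si-WDR5-3. The ratio lies just inside the limit of 1.5 times used below, so WDR5 was not among the genes called.

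A gene was called higher when its level with si-WDR5-2 was at least 1.5 times that with si-WDR5-3, and lower when it was at most 0.667 times, taking the median log2 ratio over its probe sets. The ratio is log2 of the deposited intensities, so a value of 1 is a doubling. Probe sets dimmer than the median of the array, a mean intensity of 151, were left out, which kept 22703 probe sets and 11513 genes. The medians of the arrays were 149.9 with si-WDR5-2, 151 with si-WDR5-3 and 151 with control siRNA. The lowest value on the si-WDR5-2 array was 45.5 and on the si-WDR5-3 array 46.2, so dim probe sets near this floor cannot show a low level in full.

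In all, 417 genes were higher with si-WDR5-2 (3.62% of the genes) and 356 were lower (3.09%). The count of each list below is to be read beside these shares, since lists with few called genes can lie near them. At 2 times or more the split was uneven, with 147 genes higher (1.28%) and 60 lower (0.521%). At 4 times or more 36 genes were higher and 0 lower, and at 8 times or more 14 were higher. The log2 ratios of all genes had an SD of 0.35, a median of -0.02 and quartiles of -0.13 and 0.14. For the 5816 genes with several probe sets, the SD within a gene had a median of 0.084, which is the spread of probe sets and not of cultures.

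Probe sets of a gene mostly pointed the same way. Several probe sets measured 215 of the higher genes, of which 207 had every probe set above 0 and 136 had every one at 1.5 times or more. Of the 204 lower genes with several, 187 had every probe set below 0 and 86 had every one past the limit. The spread of the ratios was wider among bright genes, with an SD of 0.25 in the dimmest 2879 genes and 0.45 in the brightest 2878. Of the higher genes, 52 had a level with si-WDR5-3 below the filter, and of the lower genes 29 had a level with si-WDR5-2 below it. These passed through 1 array only, which also set the direction of their call.

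**Figure D1:**
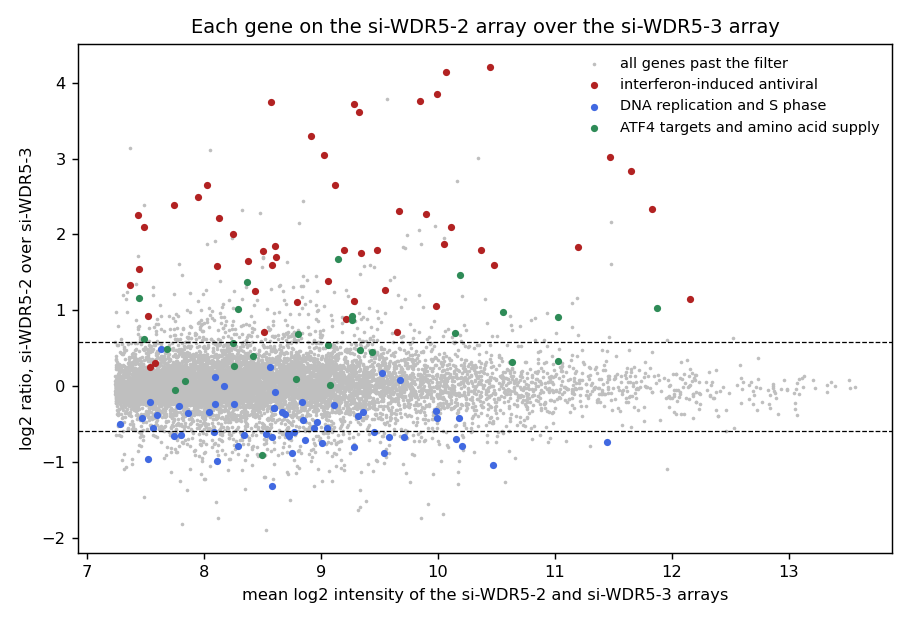
Log2 ratio of each gene, si-WDR5-2 over si-WDR5-3 (y axis), against its mean log2 intensity on both arrays (x axis). Dashed lines mark 1.5 times either way. Interferon-induced genes (red) lie above the upper line with 49 of 51, replication genes (blue) lie mostly below 0 with 51 of 57, and ATF4 targets (green) lie mostly above 0 with 25 of 27.

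The genes with the highest ratios were interferon-induced. IFITM1, a membrane protein that hinders the entry of viruses, reached 5966 with si-WDR5-2 and 324 with si-WDR5-3, against 689 with control siRNA, a ratio of 18.4 times. IFI27 had 4517 with si-WDR5-2 and 256 with si-WDR5-3, against 615 with control siRNA, or 17.6 times. IFIT2, whose product binds viral RNA in the cytoplasm, had 3860 with si-WDR5-2 and 267 with si-WDR5-3, against 443 with control siRNA, or 14.4 times (log2 ratio 3.85). Its log2 ratio was 2.29 with an offset of 84.5 added before log2 and 2.78 without the filter. In each case the si-WDR5-2 array stood far above both others, and the si-WDR5-3 array was the lowest.

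CCL5, a chemokine that draws T cells, had the highest ratio of the chemokines and cytokines. It had 2810 with si-WDR5-2 and 203 with si-WDR5-3, against 347 with control siRNA, a ratio of 13.8 times. BST2, or tetherin, which holds budding virus particles at the cell surface, had 2255 with si-WDR5-2 against 172 with si-WDR5-3. The nucleotide kinase CMPK2 (1392 with si-WDR5-2, 104 with si-WDR5-3), OASL (2231 with si-WDR5-2, 183 with si-WDR5-3) and the guanylate-binding protein GBP1 (1519 with si-WDR5-2, 153 with si-WDR5-3) also lay between 9.86 and 13.4 times. For CMPK2 the ratio belongs to its bright probe set. With all 3 of its probe sets, the dim ones included, its log2 ratio was 0.28 in place of 3.74.

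**Figure D2:**
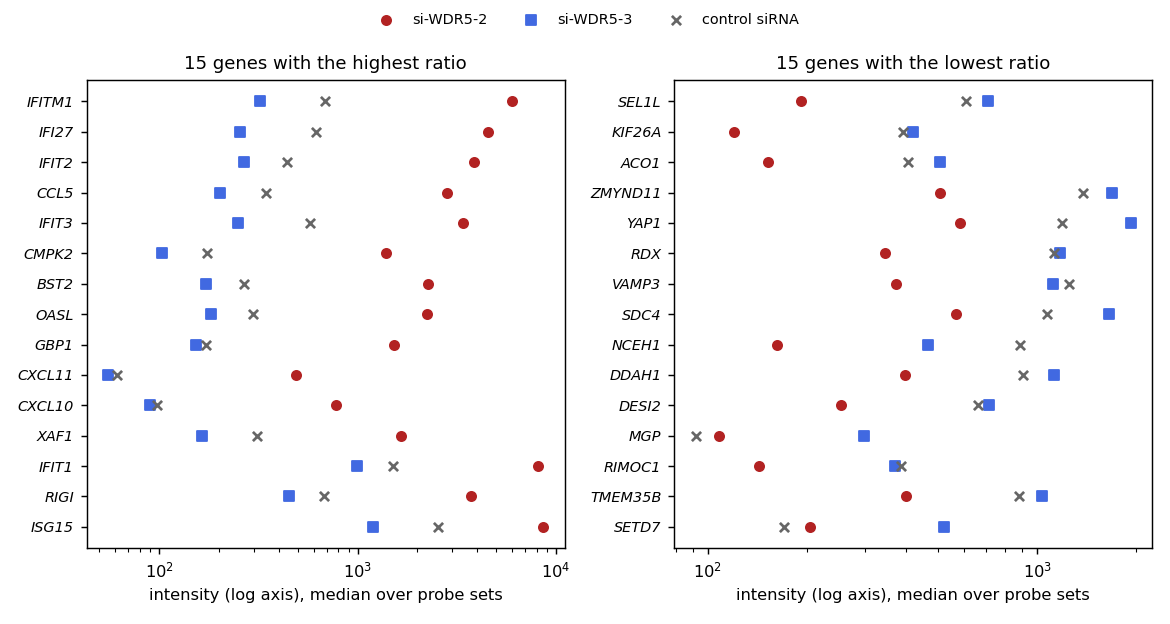
Intensity (log x axis) of the 15 genes with the highest and the 15 with the lowest ratio on the si-WDR5-2 array (circles), the si-WDR5-3 array (squares) and the control array (crosses), 1 array each, as the median over probe sets. Among the 15 highest genes every control value lies nearer to the si-WDR5-3 value on this axis, as for IFITM1 with 5966 for si-WDR5-2, 324 for si-WDR5-3 and 689 for control. MGP and SETD7 in the right panel are the genes where the control value lies beside that of si-WDR5-2.

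Across the list of interferon-induced antiviral genes, 49 of 51 past the filter were higher, 0 were lower and 51 of 51 lay above 0. The median log2 ratio was 1.84, against -0.02 over all genes. The higher ones included effectors of several kinds: the 2′-5′ oligoadenylate synthetase OAS1 (log2 ratio 2.66), which activates RNase L, MX2 (2.26), a GTPase that acts on viral capsids, RSAD2 (2.65), or viperin, and ISG15 (2.84), a ubiquitin-like modifier. The kinase EIF2AK2 (1.26), or PKR, which stops translation on binding double-stranded RNA, was less far up. OAS3 (0.26) and APOL1 (0.31) were the 2 that were not called.

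The filter bears on this list, since 10 of its 49 higher genes were below it with si-WDR5-3. With the filter set on the control array, which neither side of the ratio used, 43 of 45 were higher with a median of 1.85. On the control scale all 51 genes were above control with si-WDR5-2 and 2 of 51 with si-WDR5-3, and the median log2 ratio to control was 1.53 with si-WDR5-2 against -0.33 with si-WDR5-3. Both ratios share the control array, so they are given side by side and not set against each other.

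Sensors of double-stranded RNA differed most within the signalling list. RIGI, the gene of RIG-I, had 3720 with si-WDR5-2 and 453 with si-WDR5-3, against 674 with control siRNA. IFIH1, the gene of MDA5, had 1071 with si-WDR5-2 and 198 with si-WDR5-3, against 322 with control siRNA. TLR3, the endosomal sensor, had 410 with si-WDR5-2 and 78.4 with si-WDR5-3, against 87.1 with control siRNA. All 3 sensors were higher with si-WDR5-2, but the sizes for a pair of them depend on dim signal. The value of TLR3 with si-WDR5-3 lay in the dim range, and with the offset its log2 ratio was 1.603 in place of 2.388. IFIH1 was at 1.52 without the filter in place of 2.44.

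The transcription factors that act after the sensors were split. IRF7 had 1773 with si-WDR5-2 against 482 with si-WDR5-3, IRF1 had 519 with si-WDR5-2 against 237 with si-WDR5-3, and IRF9, the partner of STAT proteins in the interferon complex, had 676 with si-WDR5-2 against 365 with si-WDR5-3. The adaptor MAVS had a log2 ratio of -0.10, the kinase TBK1 0.42, IRF3 0.27, STING1 0.00 and the receptor chain IFNAR1 0.20, none of which met the limit. Of 28 genes of sensing and interferon signalling, 8 were higher and 2 lower, with a median of 0.26. The lower ones were JAK1 (808 with si-WDR5-2, 1216 with si-WDR5-3), a kinase of the interferon receptor, and STAT3 (392 with si-WDR5-2, 716 with si-WDR5-3). JAK1 lay at the limit and was not called with median centring or without the filter (log2 ratio -0.53).

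Interferon mRNAs were dim. IFNB1, the gene of interferon beta, had 213 with si-WDR5-2 and 108 with si-WDR5-3, against 110 with control siRNA. IFNG had 168 with si-WDR5-2 against 170.4 with si-WDR5-3. Of these 2 genes, the ones of the interferon list past the filter, IFNB1 met the limit by its 1 probe set (log2 ratio 0.97) and IFNG did not. IFNB1 passed the filter only through the si-WDR5-2 array, its value on each of the other arrays being below 151, so its call had to point upward. Without the filter 1 of 6 interferon genes was higher, with a median of 0.17.

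Genes of antigen presentation were higher as a group. Of 18 genes of antigen processing and the immunoproteasome, 14 were higher and 0 lower, with a median of 1.35. Without the filter, which lets in dim probe sets and 4 more genes of the list, 13 of 22 were higher and the median was 0.72. HLA-B, a heavy chain of MHC class I, had 6017 with si-WDR5-2 and 1348 with si-WDR5-3, against 2506 with control siRNA. The immunoproteasome subunit PSMB9 had 2089 with si-WDR5-2 against 484 with si-WDR5-3, and the peptide transporter TAP1 had 1576 with si-WDR5-2 against 441 with si-WDR5-3. NLRC5, the transactivator of class I genes, had 531 with si-WDR5-2 against 141 with si-WDR5-3. NLRC5 was below the filter with si-WDR5-3 and with control siRNA. It passed only through the si-WDR5-2 array, so its call had to point upward. Subunits of the constitutive proteasome did not share this, with 1 of 32 higher and a median of -0.04. Probes of HLA genes can pick up related genes, and HLA-F ranged from 0.42 to 3.06 over its 6 probe sets and was at 0.43 with all 10.

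Among chemokines the place of the control array differed. CXCL10, a ligand of CXCR3, had 780 with si-WDR5-2 and 90.1 with si-WDR5-3, against 98.1 with control siRNA. CXCL11, another ligand of CXCR3, had 491 with si-WDR5-2 and 55.5 with si-WDR5-3, against 61.7 with control siRNA. The si-WDR5-3 values lie near the floor, and with an offset added before log2 the log2 ratio was 2.31 in place of 3.11 for CXCL10 and 1.91 in place of 3.14 for CXCL11. CXCL2 had 682 with si-WDR5-2 and 276 with si-WDR5-3, against 552 with control siRNA, and CXCL1 had 1182 with si-WDR5-2 and 574 with si-WDR5-3, against 878 with control siRNA. For these neutrophil attractants the control value was nearer to si-WDR5-2 on the log2 scale. CCL2, which draws monocytes, was the only member called lower, with 490 in si-WDR5-2 cells and 777 in si-WDR5-3 cells, against 1076 with control siRNA. Of the 18 chemokines and cytokines past the filter 10 were higher, but 4 of these were below the filter with si-WDR5-3 and passed through the si-WDR5-2 array. Without the filter 8 of 27 were higher with a median of 0.20 in place of 0.63, and with the offset 7 of 18 were.

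Among the genes of NF-kappaB, 3 of 15 were higher and 0 lower. These were NFKBIZ (656 with si-WDR5-2, 201 with si-WDR5-3), TNFAIP3 (409 with si-WDR5-2, 198 with si-WDR5-3), which ends NF-kappaB signalling, and TRAF1 (325 with si-WDR5-2, 141 with si-WDR5-3). TRAF1 stood at 331 with control siRNA, beside si-WDR5-2, and its call was lost without the filter (log2 ratio 0.55). Between the compared arrays it passed the filter only through that of si-WDR5-2, so its call had to point upward. The subunits RELA (0.13) and NFKB1 (0.19) were not called.

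Several genes of cell death were also higher. CASP1, the caspase of inflammasomes, had 323 with si-WDR5-2 against 92.3 with si-WDR5-3, CASP4 had 847 with si-WDR5-2 against 359 with si-WDR5-3, and PMAIP1, or NOXA, had 1074 with si-WDR5-2 against 385 with si-WDR5-3. CASP1 was below the filter with si-WDR5-3 and with control siRNA. It passed only through the si-WDR5-2 array, so its call had to point upward. TNFSF10, the ligand TRAIL, had 379 with si-WDR5-2 against 190 with si-WDR5-3. Of its receptors, the decoy TNFRSF10D had 242 with si-WDR5-2 against 554 with si-WDR5-3. TNFRSF10B, which carries the death signal, had 706 with si-WDR5-2 against 1101 with si-WDR5-3, but with its dimmer probe sets its log2 ratio was 0.20 in place of -0.64. In this list of 21 genes, 6 were higher and 2 lower, with a median of 0.18. The other higher genes were MLKL and XAF1, which had the highest ratio (1650 with si-WDR5-2, 165 with si-WDR5-3). The list overlaps others, as TNFSF10 also belongs to the chemokines and cytokines and XAF1 to the immune lists counted together below. Of 17 BCL2 family genes, PMAIP1 was higher, BAG4 was lower and MCL1 had a log2 ratio of 0.00. That is 5.88% each way, beside 3.62% higher and 3.09% lower of all genes.

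The 4 lists of interferon-induced genes, antigen processing, chemokines and RNA sensing together held 115 genes past the filter. They made up 67 of the 147 genes at 2 times or more and 32 of the 36 at 4 times or more. The other 4 of the 36 were GTF3C6, CLDN1, DDX60L and CYSTM1. Without the 4 lists, 336 of 11398 genes were higher (2.95%) and the SD of the ratios was 0.30.

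GTF3C6 and CYSTM1 were of another kind. GTF3C6, a subunit of the RNA polymerase III factor TFIIIC, had 2934 with si-WDR5-2 and 448 with si-WDR5-3, against 2211 with control siRNA. CYSTM1, a small membrane protein, had 1871 with si-WDR5-2 and 448 with si-WDR5-3, against 1604 with control siRNA. For both, the si-WDR5-3 array was the one apart. CLDN1, a tight junction claudin, had 717 with si-WDR5-2 and 143 with si-WDR5-3, against 181 with control siRNA, so there the si-WDR5-2 array was apart. The level of CLDN1 with si-WDR5-3 lay below the filter.

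Which array stood apart was counted for all called genes. On the log2 scale, the control value was nearer to si-WDR5-3 for 305 of the 417 higher genes and 276 of the 356 lower genes. It was nearer to si-WDR5-2 for 112 of the higher and 80 of the lower genes. In 106 higher genes control lay below si-WDR5-3, and in 34 it lay above si-WDR5-2.

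Targets of ATF4, the transcription factor of the integrated stress response, were higher as well. Of 27 genes of ATF4 and amino acid supply, 13 were higher and 1 lower, with a median of 0.56. ATF4 had 5344 with si-WDR5-2 and 2616 with si-WDR5-3, against 2780 with control siRNA. ASNS, asparagine synthetase, had 1943 with si-WDR5-2 and 703 with si-WDR5-3, against 641 with control siRNA, and SESN2, an inhibitor of mTORC1, had 1010 with si-WDR5-2 and 316 with si-WDR5-3, against 303 with control siRNA. DDIT3, or CHOP, had 260 with si-WDR5-2 and 116 with si-WDR5-3, against 110 with control siRNA. In each the si-WDR5-3 level was close to that of control and the si-WDR5-2 level lay above both. Of the 13 higher genes of this list, 7 were less than 2 times higher. Below the filter with si-WDR5-3 were 2 of the 13, among them DDIT3. DDIT3 passed only through the si-WDR5-2 array, so its call had to point upward.

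The enzymes PSAT1 (log2 ratio 0.93) and PHGDH (0.70) of serine synthesis and the transporter SLC3A2 (0.88) were higher, while SLC38A1, a glutamine transporter, was lower (256 with si-WDR5-2, 510 with si-WDR5-3). Of 34 aminoacyl-tRNA synthetases 4 were higher and 0 lower, namely WARS1 (915 with si-WDR5-2, 427 with si-WDR5-3), AARS1 (752 with si-WDR5-2, 392 with si-WDR5-3), CARS1 and GARS1. WARS1 is also induced by interferon. In the endoplasmic reticulum list of 33 genes, HSPA5 (621 with si-WDR5-2, 360 with si-WDR5-3), the chaperone BiP, HERPUD1 (593 with si-WDR5-2, 307 with si-WDR5-3) and XBP1 (896 with si-WDR5-2, 460 with si-WDR5-3) were higher and SEL1L was lower, with a median of 0.13. The shares of this list were 9.09% higher and 3.03% lower, beside 3.62% and 3.09% of all genes.

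HMOX1, heme oxygenase, had 595 with si-WDR5-2 and 153 with si-WDR5-3, against 359 with control siRNA. It was 1 of 4 higher genes among 21 targets of NRF2, of which AKR1C1 (286 with si-WDR5-2, 136 with si-WDR5-3), AKR1C3 and the cystine transporter SLC7A11 were the others. The level of AKR1C1 with si-WDR5-3 lay below the filter. The NRF2 targets NQO1 (-0.02) and GCLM (0.10) were near 0. For SLC7A11, 3 probe sets gave log2 ratios from 0.17 to 1.66.

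Genes of DNA replication were lower with si-WDR5-2. Of 57 genes of replication and S phase, 25 were lower and 0 higher, 51 lay below 0 and the median was -0.49. TYMS, thymidylate synthase, had 991 with si-WDR5-2 and 2041 with si-WDR5-3, against 2084 with control siRNA. PCNA, the sliding clamp of replication, had 2159 with si-WDR5-2 and 3591 with si-WDR5-3, against 3413 with control siRNA. TK1 had 547 with si-WDR5-2 and 1005 with si-WDR5-3, against 1013 with control siRNA. For all 3 the si-WDR5-3 level lay close to control.

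The replicative helicase shared the direction, with MCM4 (318 with si-WDR5-2, 581 with si-WDR5-3), MCM2 at a log2 ratio of -0.63 and MCM7 at -0.70, and the GINS subunits GINS1 (-0.79), GINS2 (-0.95) and GINS4 (-0.98). MCM5 (-0.29) and MCM3 (-0.54) were not called, and RRM2, a subunit of ribonucleotide reductase, was at 0.09. TIMELESS, which stabilises replication forks, had the lowest ratio of the list, with 243 with si-WDR5-2 and 604 with si-WDR5-3, against 415 with control siRNA. With the dimmer probe sets included, GINS4 was at -0.47 and no longer called. GINS2 was below the filter with si-WDR5-2 and passed through the si-WDR5-3 array, so its call had to point downward.

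Mitotic genes were lower by a like amount. Of 70 genes of mitosis and the kinetochore, 25 were lower and 0 higher, 67 lay below 0 and the median was -0.49. NCAPG, a condensin subunit, had 253 with si-WDR5-2 and 588 with si-WDR5-3, against 636 with control siRNA, and BUB1B, a kinase of the spindle checkpoint, had 309 with si-WDR5-2 and 640 with si-WDR5-3, against 677 with control siRNA. MKI67, the proliferation antigen Ki-67, had a log2 ratio of -0.62 and TOP2A one of -0.67. AURKA (-0.28), PLK1 (-0.34) and BIRC5 (-0.33) were below 0 but were not called. Several genes counted as lower lay near the limit, and with an offset added before log2 the number was 15 in the replication list and 15 in the mitotic list.

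Cyclins and their kinases were mixed. CDK6 (241 with si-WDR5-2, 553 with si-WDR5-3), CDKN1C, an inhibitor also known as p57 (109 with si-WDR5-2, 231 with si-WDR5-3), CKS1B (485 with si-WDR5-2, 942 with si-WDR5-3), CDC25A (189 with si-WDR5-2, 347 with si-WDR5-3) and CCNE2 were lower. CDKN1C was below the filter with si-WDR5-2 and passed through the si-WDR5-3 array, so its call had to point downward. CCNE2, cyclin E2, had 247 with si-WDR5-2 and 374 with si-WDR5-3, against 604 with control siRNA, and lost its call without the filter (log2 ratio -0.35). Cyclin D1, CCND1, was the 1 higher gene among 17 G1 genes, with 1438 with si-WDR5-2 and 962 with si-WDR5-3, against 1654 with control siRNA, and it lost the call with quantile normalization or an offset. Cyclin B1, CCNB1, had 721 with si-WDR5-2 against 923 with si-WDR5-3 (log2 ratio -0.36), and cyclin E1, CCNE1, had 260 with si-WDR5-2 and 299 with si-WDR5-3, against 567 with control siRNA. Of 14 mitotic cyclin and CDK1 genes 3 were lower, among them CDK1 (434 with si-WDR5-2, 706 with si-WDR5-3), and the median was -0.31.

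The 4 lists of replication, mitosis, mitotic cyclins and homologous recombination held 161 genes past the filter. They made up 54 of the 356 lower genes, while 11513 genes passed the filter in all. The share of lower genes was 43.9% in the replication list and 35.7% in the mitosis list, beside 3.09% of all genes. It was 21.4% for mitotic cyclins and 4.76% for homologous recombination. Of the 60 genes lower by 2 times or more (0.521% of all genes), 4 came from the 4 lists. A smaller number of dividing cells and less RNA per cell cannot be told apart in bulk RNA, and growth of the cultures was not measured on these arrays.

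**Figure D3:**
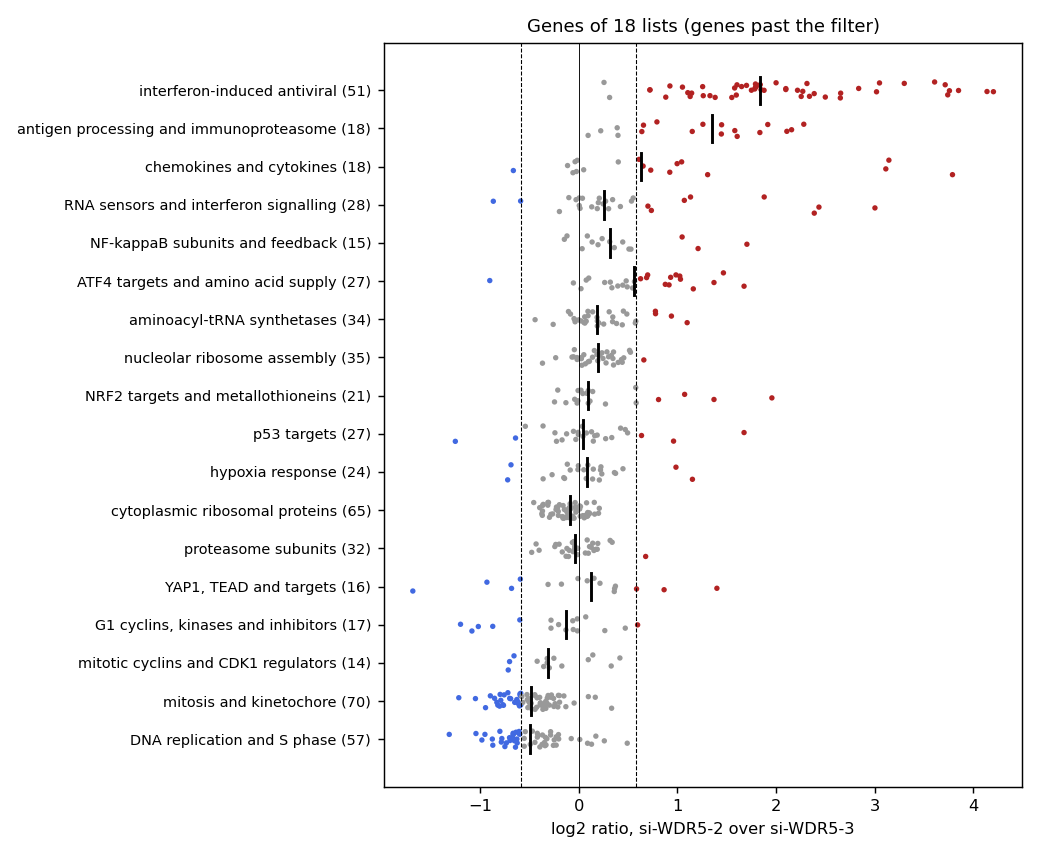
Log2 ratio of si-WDR5-2 over si-WDR5-3 (x axis) for each gene of 18 lists, with the number of genes past the filter in brackets. Points are genes (red at least 1.5 times higher, blue at least 1.5 times lower, grey between), thick bars are list medians and dashed lines mark 1.5 times. Medians run from 1.84 for interferon-induced genes to -0.49 for replication and mitosis, while cytoplasmic ribosomal proteins stay within -0.46 to 0.21.

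Genes with the lowest ratios did not share a list. SEL1L, a subunit of the ubiquitin ligase that clears misfolded proteins from the endoplasmic reticulum, had 192 with si-WDR5-2 and 711 with si-WDR5-3, against 606 with control siRNA (log2 ratio -1.89). KIF26A, a kinesin-like protein, had 120 with si-WDR5-2 and 421 with si-WDR5-3, against 392 with control siRNA (-1.81). KIF26A was below the filter with si-WDR5-2 and passed through the si-WDR5-3 array, so its call had to point downward. ACO1, an aconitase that also binds iron-responsive mRNAs, had 153 with si-WDR5-2 and 508 with si-WDR5-3, against 406 with control siRNA (-1.74). In these 3 the si-WDR5-3 level was near control and the si-WDR5-2 level was far below.

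ZMYND11, a reader of a histone H3.3 mark, had 508 with si-WDR5-2 and 1686 with si-WDR5-3, against 1373 with control siRNA. RDX, radixin of the ERM proteins, had 344 with si-WDR5-2 and 1175 with si-WDR5-3, against 1124 with control siRNA, and VAMP3, a SNARE of vesicle fusion, had 373 with si-WDR5-2 and 1120 with si-WDR5-3, against 1249 with control siRNA. DDAH1 had 396 with si-WDR5-2 and 1126 with si-WDR5-3, against 905 with control siRNA, and SDC4, the proteoglycan syndecan-4, had 566 with si-WDR5-2 and 1652 with si-WDR5-3, against 1073 with control siRNA. The spread across probe sets was wide in this group, and dim probe sets of the same gene gave smaller ratios. With every probe set included, the log2 ratio was -0.14 for SEL1L, -0.16 for ZMYND11, -0.39 for RDX and -0.08 for DDAH1.

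MGP and SETD7 went another way. MGP, matrix Gla protein, had 108 with si-WDR5-2 and 299 with si-WDR5-3, against 92.1 with control siRNA. SETD7, a lysine methyltransferase, had 204 with si-WDR5-2 and 523 with si-WDR5-3, against 170 with control siRNA. Here the si-WDR5-3 array was higher than both others. MGP passed the filter only through that array, and without the filter the log2 ratio was -0.76 for MGP in place of -1.46 and -0.69 for SETD7 in place of -1.36.

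YAP1, the transcriptional coactivator of the Hippo pathway, had 581 with si-WDR5-2 and 1922 with si-WDR5-3, against 1186 with control siRNA. Of its 6 probe sets, 4 ranged between -1.87 and -1.63 and the rest gave -0.04 and 0.05, so the median was -1.68. Its partner TEAD1 had 671 with si-WDR5-2 against 1076 with si-WDR5-3, and its call was lost when dimmer probe sets were included (log2 ratio -0.16). AXL, a receptor kinase, had 544 with si-WDR5-2 against 1037 with si-WDR5-3. The YAP targets CCN2 (811 with si-WDR5-2, 272 with si-WDR5-3) and CCN1 (844 with si-WDR5-2, 464 with si-WDR5-3) were higher, and the list of 16 genes had 3 higher, 4 lower and a median of 0.12, and without the filter 2 higher and 2 lower of 21.

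Adhesion and growth factor genes differed one by one. The integrin chain ITGA5, of the fibronectin receptor, had 593 with si-WDR5-2 and 244 with si-WDR5-3, against 475 with control siRNA. ITGA6, of the laminin receptor, had 473 with si-WDR5-2 and 1027 with si-WDR5-3, against 603 with control siRNA. EREG, an EGFR ligand, had 341 with si-WDR5-2 against 163 with si-WDR5-3 and FGF2 had 386 with si-WDR5-2 against 181 with si-WDR5-3, although 1 of its probe sets lay at 0.01. In the TGF-beta list, ID2 (564 with si-WDR5-2, 1000 with si-WDR5-3), PMEPA1, TGFBR2 and TGFBR1 were lower, 0 of 21 were higher and the median was -0.08. PMEPA1 was below the filter with si-WDR5-2 and passed through the si-WDR5-3 array, so its call had to point downward. The kinase feedback genes DUSP5 (972 with si-WDR5-2, 475 with si-WDR5-3) and DUSP6 (2151 with si-WDR5-2, 1147 with si-WDR5-3), phosphatases of ERK, and IER2 and MYC (2362 with si-WDR5-2, 1554 with si-WDR5-3) were the 4 higher genes of 25 in the RAS-MAPK list.

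Histone genes differed in both directions. H1-2 had 723 with si-WDR5-2 and 291 with si-WDR5-3, against 232 with control siRNA. H2AC6 had 401 with si-WDR5-2 and 167 with si-WDR5-3, against 149 with control siRNA, and H2BC12 had 2397 with si-WDR5-2 and 1314 with si-WDR5-3, against 835 with control siRNA. H2AX, a variant histone of the DNA damage response, was lower (1524 with si-WDR5-2, 2540 with si-WDR5-3). Of 15 histone genes 5 were higher and 1 lower, with a median of 0.30, and with the filter on the control array 3 of 12 were higher with a median of 0.10. Most histone genes are close copies of each other, so their probes can pick up more than one, and H2BC21 (0.98) was at -0.06 with all of its probe sets.

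The partners of WDR5 differed little between the arrays, as did most genes. Of 18 genes of the MLL/SET1 complexes and their readers, 0 were higher and 1 was lower (5.56%), beside 3.62% higher and 3.09% lower of all genes. RBBP5 (log2 ratio -0.02), ASH2L (0.12) and DPY30 (0.00), which form the core module with WDR5, were within 0.12 of 0. The methyltransferases KMT2A (-0.27), KMT2B (0.15) and SETD1A (0.14) were not called. PSIP1, which tethers menin complexes to chromatin, was the called gene, but its 2 probe sets gave 0.04 and -1.47. In the NSL list of 9 genes, which holds WDR5 too, 0 were called and the median was 0.02. In lists this small, such counts do not differ from the shares of all genes.

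Large housekeeping lists lay near 0. Of 65 cytoplasmic ribosomal protein genes 0 were called, with ratios from -0.46 to 0.21 and a median of -0.09. Of 74 mitochondrial ribosomal protein genes 1 was higher, MRPL15, with a median of 0.08. Of 50 respiratory chain genes 1 was higher and 1 lower, with a median of -0.04. The nucleolar ribosome assembly genes had a median of 0.19, with 28 of 35 above 0, but only POLR1C was called. GAPDH had a log2 ratio of -0.01 and ACTB one of 0.07.

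A list of 23 genes, a part of those that the study had named, went both ways. Other genes in the study's table of changed mRNAs are not in the list. GLO1, NCEH1 and BAG4 are among those and were called lower here, so the counts below are of the list only. Of 21 past the filter, 4 were higher (19.0%) and 1 was lower (4.76%), beside 3.62% and 3.09% of all genes, with a median of 0.01. Part of this list was chosen by the study on the same arrays, so the counts are not independent of them. UHMK1 and NANOG, which the study also named, were too dim for the filter. The brighter probe set of UHMK1 had 156 with si-WDR5-2 and 137 with si-WDR5-3, against 313 with control siRNA. TPM4 (-0.07), TSC22D1 (0.01) and MESD (0.04) were nearly equal. CITED2, which competes with HIF-1 for its coactivators, had 1254 with si-WDR5-2 and 564 with si-WDR5-3, against 376 with control siRNA. DDIT4, an inhibitor of mTORC1, had 2117 with si-WDR5-2 and 1070 with si-WDR5-3, against 635 with control siRNA, so for both the order was si-WDR5-2, si-WDR5-3 and control. CCND1, CCNE2 and SEMA3A (1028 with si-WDR5-2, 658 with si-WDR5-3 and 322 with control siRNA) were the others called in this list.

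Most markers of other cell types were not called. The T cell genes CD3E (-0.15) and CD3D (-0.03), the B cell gene CD79A (-0.09), and the endothelial genes PECAM1 (-0.07) and VWF (-0.04) lay near 0. Of the 3 fibroblast markers past the filter 0 were called, with PDGFRB at -0.05, COL1A1 at 0.08 (-0.06 without the filter) and THY1 at -0.41. Of 28 marker genes past the filter in 7 lists, 1 was higher and 1 lower, beside 3.62% and 3.09% of all genes. CD68, a lysosomal protein of macrophages that other cells also make, had 561 with si-WDR5-2 against 306 with si-WDR5-3, and KRT18, an epithelial keratin, had 1217 with si-WDR5-2 against 1858 with si-WDR5-3. The urothelial genes UPK1A (163 with si-WDR5-2, 171 with si-WDR5-3) and UPK3B (155 with si-WDR5-2, 163 with si-WDR5-3) were close to the median of the array, so these markers of the differentiated bladder lining were dim on both.

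A part of the higher genes stood side by side in the genome. Among 11505 genes with a position in the RefSeq annotation, 9 runs of at least 3 neighbouring genes past the filter were all higher, with 33 of the 417 higher genes in them, and 0 runs were all lower. Among the runs were IFIT2, IFIT3, IFIT1 and IFIT5 with LIPA, and GBP3, GBP1 and GBP2 with RBMXL1. Others were the genes IFITM2, IFITM1 and IFITM3, and the genes TAP2, PSMB8, TAP1 and PSMB9. CXCL1, CXCL3 and CXCL2 stood with EREG, and CXCL10 and CXCL11 with NUP54. The remaining runs were IFI44L and IFI44 with DNAJB4, CASP4 and CASP1 with MSANTD4, and PARP9, DTX3L and PARP14 with KPNA1. Several of these are families of copied genes, so neighbours can share probe sequence as well as position.

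Promoters were searched for letters of known binding sites, 250 bases before to 50 after the start of each gene, in the RefSeq table of build GRCh38.p14. A promoter was found for 9369 of 11513 genes. The interferon-stimulated response element was read on either strand as GAAA, any 2 bases and GAAA again, the site bound by the complex of STAT proteins with IRF9. It was present in 16.2% of 345 promoters of higher genes, 2.70% of 296 of lower genes and 2.78% of all, and in 31.7% of 126 promoters of genes at 2 times or more. Of the 42 interferon-induced genes with a promoter, 26 held it (61.9%). Among all 27305 promoters in the table the share was 3.65%.

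The windows below are shown because they carry the element before the start of genes with high ratios. Genes without such a match or without a promoter were passed over. IFIT2 and CCL5 have ratios above some of those shown but no window, so the windows do not show how common the element is. The element is in capitals, with 80 bases each, 5′ to 3′ on the strand of the gene. In the windows that follow, capitals that begin with TTTC are this element read on the opposite strand. A match is a description of letters and not a site.
IFITM1, chr11:313960-314039, plus strand: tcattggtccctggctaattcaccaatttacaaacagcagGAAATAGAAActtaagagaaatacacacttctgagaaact
IFI27, chr14:94110611-94110690, plus strand: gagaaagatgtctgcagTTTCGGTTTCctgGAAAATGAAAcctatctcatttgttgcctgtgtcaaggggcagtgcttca
IFIT3, chr10:89327845-89327924, plus strand: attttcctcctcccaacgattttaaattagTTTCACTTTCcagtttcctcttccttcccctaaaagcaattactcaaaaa
BST2, chr19:17405705-17405784, minus strand: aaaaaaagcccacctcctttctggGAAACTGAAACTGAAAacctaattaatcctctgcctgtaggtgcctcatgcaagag
GBP1, chr1:89065286-89065365, minus strand: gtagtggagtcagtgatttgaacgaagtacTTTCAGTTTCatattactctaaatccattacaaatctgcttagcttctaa
CXCL10, chr4:76023668-76023747, minus strand: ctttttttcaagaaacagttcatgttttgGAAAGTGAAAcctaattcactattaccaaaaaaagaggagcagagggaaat

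In IFI27 the window holds the element on both strands, and in BST2 2 copies overlap. Its letters also occurred in genes that did not move: the 260 genes with it had a median log2 ratio of 0.10, 56 of them higher and 8 lower, against -0.02 for the 9109 genes without it, 289 higher and 288 lower.

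A site of NF-kappaB, read as GGGA, any 3 bases and TCC, was in 9.86% of the promoters of higher genes, 4.39% of those of lower genes and 5.41% of all, and in 7 of the 11 chemokine promoters. A site of E2F, read as TTTCCCGC, was in 2.32% of the promoters of higher genes and 5.41% of those of lower genes, against 2.72% of all, and in 24% of the 50 promoters of replication genes. The windows of a pair of these genes show it, with the element in capitals, here as GCGGGAAA, its reading on the opposite strand.
TYMS, chr18:657573-657652, plus strand: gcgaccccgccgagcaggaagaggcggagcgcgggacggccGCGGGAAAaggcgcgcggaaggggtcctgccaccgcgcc
GINS2, chr16:85688955-85689034, minus strand: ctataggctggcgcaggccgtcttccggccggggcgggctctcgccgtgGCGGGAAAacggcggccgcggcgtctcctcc

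In all 10 motifs were searched, and they were chosen with results known. The E-box CACGTG was in 10.1% of the promoters of higher genes and 10.1% of all. The gamma-activated site TTCNNNGAA was in 10.1% and 6.37%, the amino acid response element TTGCATCA in 1.45% and 0.544%, and the palindromic site of NRF1 in 0% and 2.34%. For the amino acid response element the 1.45% is only 5 of 345 promoters, and it was in 0 of 126 at 2 times or more. Among lower genes, the second E2F form TTTGGCGC was in 2.70% and 1.06% of all, the cell cycle homology region TTTGAA in 15.5% and 9.78%, and the CCAAT box in 43.2% and 36.5%. Higher genes held TTTGGCGC in 0.870%, TTTGAA in 13.3% and the CCAAT box in 41.2%, so TTTGAA and CCAAT were not particular to lower genes. In genes lower by 2 times or more, TTTGAA was in 10.6% and the CCAAT box in 31.9%.

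**Figure D4:**
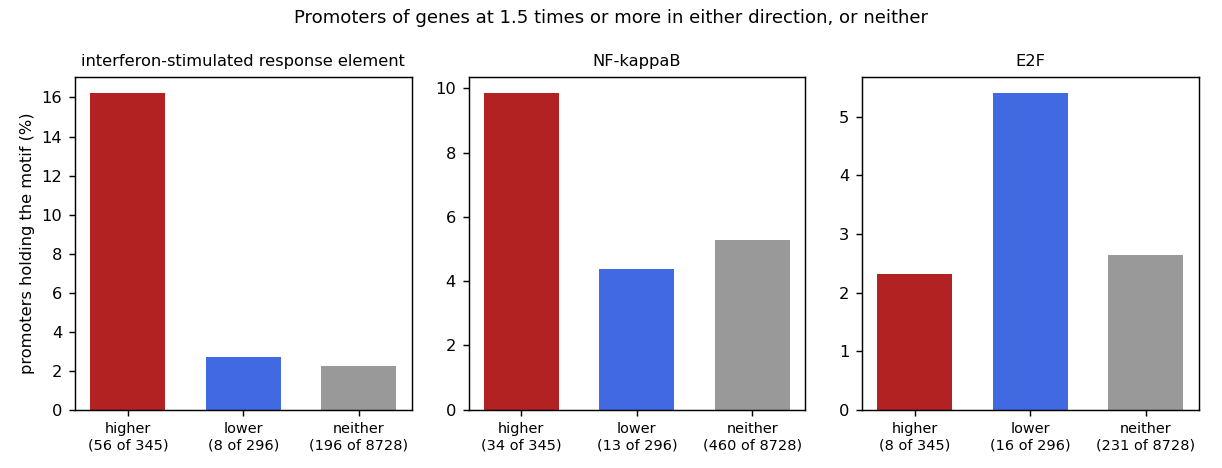
Share of promoters (y axis, percent) that hold the interferon-stimulated response element, the NF-kappaB site or the E2F site, for genes at least 1.5 times higher with si-WDR5-2 (left bar), at least 1.5 times lower (middle) and neither (right), with counts below each bar. The element is in 56 of 345 promoters of higher genes, and the E2F site in 16 of 296 promoters of lower genes.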

How the data were processed

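The authors analysed the PrimeView scans with GCOS 1.4, per the methods and the submitters' processing notes, and deposited a table of linear intensities with 1 column per array. How these intensities were corrected for background, summarised and normalized is not given in the sources used here. Array medians were close, so no further scaling was applied. Gene names come from the platform annotation. Log2 ratios of the si-WDR5-2 array over the si-WDR5-3 array were taken per probe set with Python 3.11.15, numpy 2.4.6 and pandas 2.3.3, and drawn with matplotlib 3.10.9. Probe sets under the 50th percentile of mean log2 intensity were left out, and each gene took the median of its kept probe sets with 1 symbol.

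With 1 array per condition the number of arrays limits the precision, and no test was made. The members, the 53 pathway lists and the 7 marker lists were chosen with earlier results of these data known. Named genes are WDR5, the 15 highest and 15 lowest ratios, up to 6 called members of each list in each direction or up to 2 where none was called, and the listed part of the genes the study named. Not all are printed, and others named to show genes that were not called, and members of the 36 genes at 4 times or more, were chosen after their values were seen. BIRC3 was not analysed here. The counting rule was checked on simulated data with 200 changed genes. The planted changes all lay past the limit and the only noise was the spread of probe sets. The check therefore tests the counting and says nothing of calls made by differences between cultures. As alternatives, the arrays were median centred or quantile normalized, the filter was dropped or moved to percentile 25 or 75, 84.5 (percentile 20 of both arrays) was added before log2, and genes took their brightest probe set. Other counting rules were a limit of 2 times, probe sets counted singly, and every probe set past the limit. A filter on the control array was added after seeing the data.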

Additional observations from a re-analysis of the deposited data

Results flagged for a closer look

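Probe sets with several gene symbols or none were in no comparison above. Of 1944 past the filter, 66 were at least 1.5 times higher with si-WDR5-2 than with si-WDR5-3 (3.40%) and 60 were lower (3.09%). A signal above control appeared among them: 23 probe sets were at least 2 times si-WDR5-3 and also at least 2 times control on the si-WDR5-2 array. They name no gene here.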

How the results depend on the processing

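Over the 8 other scalings, filters, offsets and gene values, 284 to 492 genes were higher and 211 to 441 lower, against 417 and 356, and the lowest count of 211 lower genes came with the offset. At 2 times, 147 were higher and 60 lower. Counted as single probe sets, 948 were higher and 872 lower. Without the filter, 319 of the 417 higher genes and 230 of the 356 lower genes were called again. The SD of the ratios was 0.25 without the filter. The median of the interferon-induced list was 1.54 with the offset and that of the replication list was -0.39 with the offset and -0.37 without the filter. WDR5 had a log2 ratio of -0.42 with the offset and was too dim for the filter at the 75th percentile. Of the named genes that were called, 3 changed sign without the filter: H2BC21 (-0.055), PSIP1 (0.038) and TNFRSF10B (0.20, also at the 25th percentile). Dimmer probe sets of the same gene enter under these settings. Of 167 named genes that were called, 52 lost the call under at least 1 alternative, 32 of them without the filter and 31 with the offset. No other named gene that was called changed sign, though some of those near 0 did, such as TSC22D1 (-0.02). The log2 ratio fell below the limit without the filter for AKR1C3 (0.38), H2BC12 (0.47), MRPL15 (0.47) and TGFBR1 (-0.22), and was smaller for NLRC5 (1.22), CLDN1 (1.72) and VAMP3 (-0.82). Of 22361 dim probe sets with 1 symbol, 84 were higher and 61 lower. No paired analysis was possible because each condition has 1 array. For the same reason, no ratio, small or large, can be told apart here from differences between cultures.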
